A study of Mus musculus with 8 samples.

Results

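The heat shock proteins and their cochaperones were followed in bulk RNA-seq of cultured mouse hippocampal neurons. Genes were taken by symbol, as every gene of the count table named as an HSP70, HSP90, HSP110, chaperonin or small heat shock protein (Hspa, Hsp90, Hsph, Hspd, Hspe, Hspb), as a J-domain protein (Dnaja, Dnajb, Dnajc) or as Bag1 to Bag6. Of the 45706 genes of the table, 88 had such a symbol and 70 also reached at least 10 counts in at least 4 of the 8 wells, comprising 24 genes with heat shock symbols, 40 with J-domain symbols and 6 Bag genes. The 18 that did not reach this level comprised 10 pseudogenes and 8 protein-coding genes, and 9 of them had no read in any well. The nearest to the limit were Dnajb13 (10 counts or more in 4 wells) and Hspb7 (5 wells) inside it, and the pseudogene Hspd1-ps3 (3 wells) and Hspb2 (0 wells) outside it. Hspb11, a component of intraflagellar transport, and Hspbap1, a partner of Hspb1, entered by their symbols although neither is a classical small heat shock protein.

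The neurons came from wild-type C57/Bl6 embryos at embryonic day 18 and received either 1 µM of the peptide MCH (melanin-concentrating hormone, a neuropeptide of the hypothalamus) or its vehicle, water, for 4 h, with 4 wells (replicates 1 to 4) of each. The study set out to find which transcripts follow the peptide in these neurons. Per its methods, the wells came from 2 independent cultures with 2 wells of each treatment, and proliferation of glia was limited with 5-FdU, but neither the labels nor the methods tie a replicate number to a culture. Beside the wild-type genotype the labels list Alzheimer's disease as the model, and the neurons were treated here as wild type. Separate wells of few cultures were compared, so the p-values measure the spread between these wells, which may in part be technical.

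Library totals ranged from 26083936 to 31844861 estimated counts. Principal components were taken after the mean of each treatment was subtracted from each gene, so they could not separate the treatments. The first, with 59.8% of the remaining variance, placed replicates 1 and 2 of both treatments on one side and replicates 3 and 4 on the other. These sides are compared below as a description, since they were read from the counts themselves. Between the sides the markers of other cell types differed: the summed level of 6 astrocyte markers lay between 290 and 392 CPM (counts scaled to a common library size) in replicates 1-2 and between 1293 and 1457 CPM in replicates 3-4, and all 6 rose in replicates 3-4. The summed level of fibroblast and vessel markers lay between 18.2 and 24.3 CPM against 54.0 to 59.9 CPM, with all 6 tested markers called higher. That of 7 oligodendrocyte-lineage markers lay between 57.3 and 67.9 CPM against 126 to 147 CPM. All 6 tested markers of this lineage had values above 0 and 4 were called higher. All 6 neuronal markers had log2 fold changes under 0 and 3 of them were called lower. The sum of the 6 lay between 6326 and 6542 CPM against 5887 to 5995 CPM. All 3 markers of inhibitory neurons fell, with a median log2 fold change of -0.28 and a sum of 1855 to 2049 CPM against 1634 to 1785 CPM. Mog, a marker of mature oligodendrocytes, had no read in any well, the sum of 5 microglial markers lay between 3.26 and 5.07 CPM against 4.34 and 5.55 CPM, with 1 of 2 tested markers (Cx3cr1) higher, and the neuronal markers had the highest sum of all these lists in every well. No marker was called between MCH and vehicle by edgeR without a block, and with the side block Gad1 alone was (log2 fold change -0.10, edgeR adjusted p = 0.027).

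Chaperones of the HSP70 family bind exposed stretches of unfolded proteins in a cycle driven by ATP. J-domain proteins bring clients to HSP70 and start its ATP hydrolysis, while Bag proteins and the HSP110 proteins release the nucleotide and with it the client, and HSP90 takes over clients close to their final fold. Heat or misfolded protein in the cytosol activates the transcription factor HSF1, which binds heat shock elements, inverted repeats of the unit GAA, whereas misfolded protein in the endoplasmic reticulum (ER) activates ATF6 and XBP1, which bind ER stress elements. Neurons express the constitutive HSP70 and HSP90 strongly and are known for a weak induction of the heat-inducible forms. The members were therefore grouped into 10 heat-inducible genes of the cytosol (Hspa1a, Hspa1b, Hsp90aa1, Hsph1, Hspb1, Hspb8, Dnaja1, Dnajb1, Dnajb4 and Bag3), 7 ER-stress-inducible genes (Hspa5, Hsp90b1, Dnajb9, Dnajb11, Dnajc3, Dnajc10 and Hspa13) and 53 other genes, called constitutive here.

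Most promoters of the heat-inducible genes and some of those of the ER-stress-inducible genes carry these elements, and examples among the genes on which the results turn are shown. RefSeq sequence (GRCm38.p6) from 250 bases before to 50 bases after the transcription start was at hand for 58 of the 70 members, and for a gene with several promoters the one nearest to its annotated start was taken. It was searched on both strands for GAANNTTC and TTCNNGAA, the 2 ways in which a pair of heat shock units can face each other, each of which reads the same on the other strand, and for the ER stress element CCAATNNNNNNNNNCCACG, in either orientation. One or both heat shock pairs were in the promoters of 7 of 9 heat-inducible, 1 of 6 ER-stress-inducible and 4 of 43 constitutive members, beside 15.1% of all 32851 promoters of the table, which for some genes holds several. The ER stress element was in 3 of 6 ER-stress-inducible and in no other member, against 0.119% of all promoters. A match of letters is a description of these windows and not a measured binding site.

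Shown first are 4 heat-inducible genes, 2 of which (Bag3 and Hspb8) differed between the sides and 2 of which (Hsph1 and Hspa1a) did not, with the heat shock pairs in capitals. They lie at chr7:128523333-128523632 (Bag3, plus strand), chr5:116422815-116423114 (Hspb8, minus strand), chr5:149636287-149636586 (Hsph1, minus strand) and chr17:34972107-34972406 (Hspa1a, minus strand), and each is written 5′ to 3′ along its gene.
Bag3: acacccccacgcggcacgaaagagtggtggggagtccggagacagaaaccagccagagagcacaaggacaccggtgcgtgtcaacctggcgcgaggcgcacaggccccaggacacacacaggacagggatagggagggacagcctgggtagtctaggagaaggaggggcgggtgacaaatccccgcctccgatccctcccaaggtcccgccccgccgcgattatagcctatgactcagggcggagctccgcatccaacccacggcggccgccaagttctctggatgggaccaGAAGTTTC
Hspb8: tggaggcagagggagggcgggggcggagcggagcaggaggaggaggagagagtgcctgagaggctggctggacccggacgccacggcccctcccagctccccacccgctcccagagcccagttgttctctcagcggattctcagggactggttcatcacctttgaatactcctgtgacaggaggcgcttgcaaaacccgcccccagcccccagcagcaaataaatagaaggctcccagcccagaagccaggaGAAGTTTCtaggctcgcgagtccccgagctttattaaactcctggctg
Hsph1: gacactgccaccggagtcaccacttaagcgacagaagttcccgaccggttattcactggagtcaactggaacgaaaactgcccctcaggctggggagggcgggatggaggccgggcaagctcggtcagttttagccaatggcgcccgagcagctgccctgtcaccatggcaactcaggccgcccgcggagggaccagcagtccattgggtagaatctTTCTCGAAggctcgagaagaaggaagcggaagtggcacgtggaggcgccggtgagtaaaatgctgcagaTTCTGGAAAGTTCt
Hspa1a: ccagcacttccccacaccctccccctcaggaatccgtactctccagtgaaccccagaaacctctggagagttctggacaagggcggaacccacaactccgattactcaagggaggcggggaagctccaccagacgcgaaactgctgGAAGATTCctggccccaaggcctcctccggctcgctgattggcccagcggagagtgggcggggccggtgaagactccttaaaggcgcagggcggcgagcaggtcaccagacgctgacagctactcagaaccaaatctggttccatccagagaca
In Hsph1 a tail-to-tail and a head-to-head pair overlap after the start and together make a heat shock element of 3 units (GAANNTTCNNGAA or TTCNNGAANNTTC), which 0.603% of all promoters and 3 of the 58 members hold (Hsph1, Hspe1 and Dnajb6). Bag3 and Hspb8 each carry 1 pair, and both pairs lie after the start of transcription.

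Shown next are the 3 members with an ER stress element, in capitals, of which Hspa5 and Hsp90b1 were lower in replicates 3-4 and Dnajc3 was not called. They lie at chr2:34771840-34772139 (Hspa5, plus strand), chr10:86705395-86705694 (Hsp90b1, minus strand) and chr14:118937682-118937981 (Dnajc3, plus strand).
Hspa5: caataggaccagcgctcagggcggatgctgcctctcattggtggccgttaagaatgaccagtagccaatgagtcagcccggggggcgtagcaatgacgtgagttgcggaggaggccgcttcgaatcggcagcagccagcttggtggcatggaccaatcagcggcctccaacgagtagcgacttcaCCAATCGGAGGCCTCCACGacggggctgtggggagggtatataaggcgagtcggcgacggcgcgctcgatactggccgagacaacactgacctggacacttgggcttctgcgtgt
Hsp90b1: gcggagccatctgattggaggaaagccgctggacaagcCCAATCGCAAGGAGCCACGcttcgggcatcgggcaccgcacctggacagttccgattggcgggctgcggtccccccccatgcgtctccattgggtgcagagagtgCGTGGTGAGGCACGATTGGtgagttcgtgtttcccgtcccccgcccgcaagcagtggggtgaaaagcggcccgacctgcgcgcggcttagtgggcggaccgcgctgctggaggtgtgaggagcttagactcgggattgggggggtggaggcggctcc
Dnajc3: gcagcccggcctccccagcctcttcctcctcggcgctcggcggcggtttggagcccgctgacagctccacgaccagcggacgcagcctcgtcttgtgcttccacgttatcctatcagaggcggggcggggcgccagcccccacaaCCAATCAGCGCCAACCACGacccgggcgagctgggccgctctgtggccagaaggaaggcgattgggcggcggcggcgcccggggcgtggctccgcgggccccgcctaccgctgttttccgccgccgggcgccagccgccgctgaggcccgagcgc
Hsp90b1 holds 2 such elements, 1 in each orientation, and Hspa5 and Dnajc3 hold 1 each.

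The members spanned 4 orders of magnitude in level, and a few cytosolic genes made up most of it. In TPM (transcript levels scaled for length and depth), the 70 members summed to between 12986 and 13784 per well, which is 1.30% to 1.38% of all TPM. Hspa8, the constitutive cytosolic HSP70 that also uncoats clathrin vesicles, was the highest with 3903 ± 108 TPM (SD, n = 8). Hsp90ab1, the constitutive HSP90, followed with 2485 ± 74.5 TPM and Hsp90aa1, its heat-inducible counterpart, with 1872 ± 68.3 TPM, and these 3 genes held 61.4% of the members' summed TPM. The ranges of the 3 genes over wells did not overlap, so their order held in every well. Dnaja1 (403 ± 13.1 TPM), a J-domain partner of Hspa8, and Hsp90b1 (401 ± 54.3 TPM), the HSP90 of the ER, came next and did not differ beyond their spread.

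**Figure D1:**
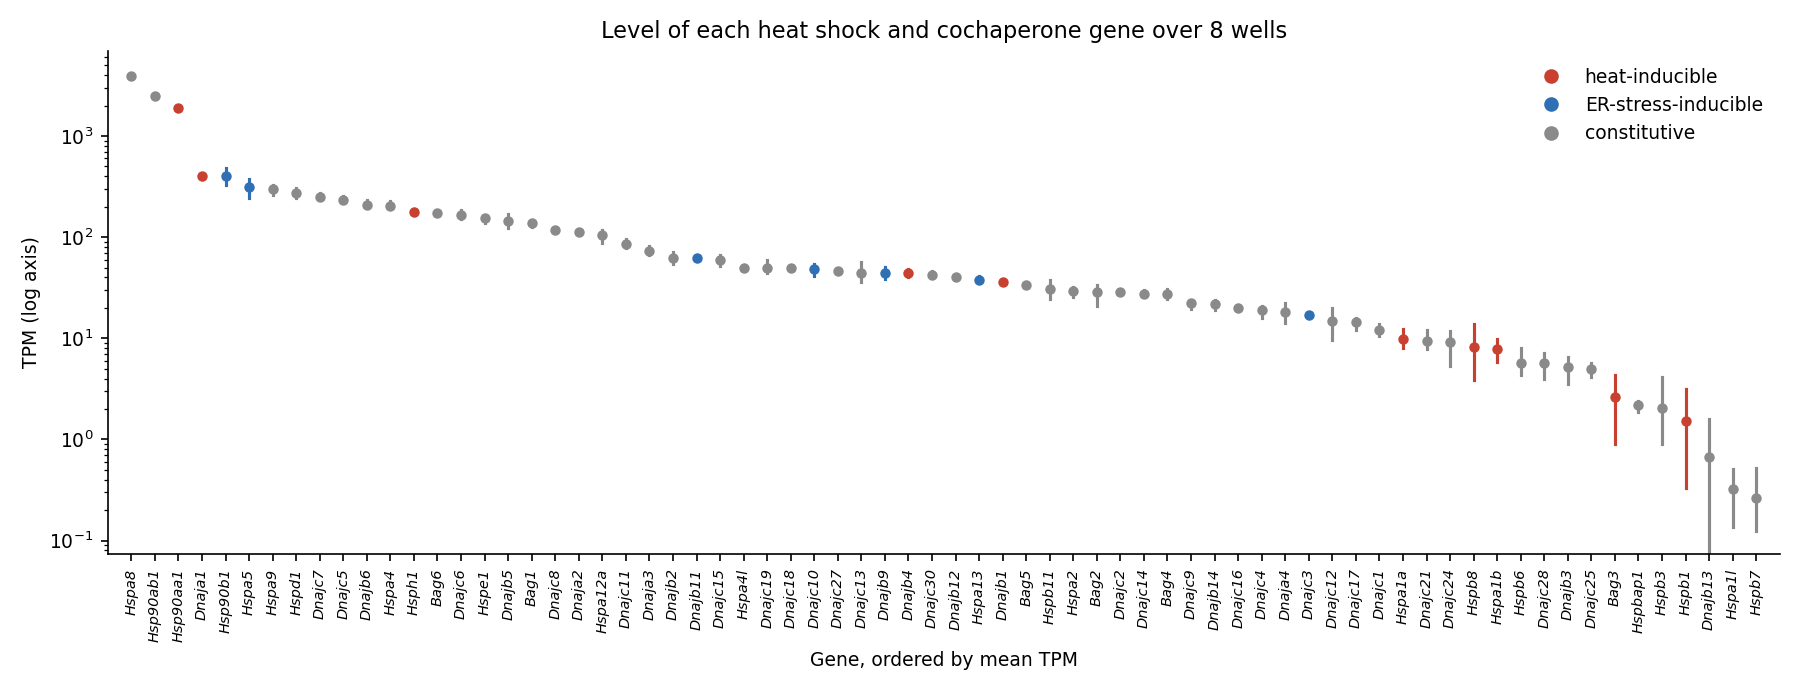
TPM of the 70 genes on a log axis, ordered by mean; points are means over 8 wells, lines run from the lowest to the highest well, and colour gives the group. Hspa8, Hsp90ab1 and Hsp90aa1 stand above the rest, and 5 of 10 heat-inducible genes lie under 10 TPM.

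The inducible genes were spread over this range. Of the 10 heat-inducible genes 3 reached 100 TPM and 5 stayed under 10 TPM, with a median of 22.9 TPM, while the 53 constitutive genes had a median of 40.7 TPM and the 7 ER-stress-inducible genes one of 48.4 TPM. Hspa1a (9.85 TPM) and Hspa1b (7.79 TPM), the classical heat-inducible HSP70 genes, were far under their constitutive counterpart Hspa8. Bag3 had 2.60 TPM and Hspb1 1.52 TPM, against 137 TPM for Bag1. Only 3 members, the constitutive genes Dnajb13, Hspa1l and Hspb7, had a mean under 1 TPM. Hspa1a and Hspa1b lie side by side on chromosome 17 (GRCm38, chr17:34969190-34972156 and chr17:34956436-34959238), and their longest open reading frames were identical at 99.4% of 1929 aligned columns, so their split between the copies is uncertain. Their sum is therefore given below as well.

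MCH against vehicle was the first comparison. No member passed the test (quasi-likelihood F test of edgeR, p-values adjusted after Benjamini and Hochberg over 14962 genes, threshold 0.05), where 0.234% of all genes did. Of the 70 members 8 (11.4%) had an unadjusted p under 0.05, beside 8.50% of all genes. DESeq2 called 2 members, Dnajc28 and Dnajb14, among 171 genes in all, which is 1.49% of the 11481 genes to which it gave an adjusted p. The members' median log2 fold change was -0.02, beside -0.003 over all genes tested, and 48 of 70 had a value under 0, beside 51.0% of all genes. In bulk RNA, fewer cells of a type and less RNA per cell cannot be told apart.

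None of the heat-inducible genes was called for MCH, and 9 of the 10, all but Hspb1, had log2 fold changes between -0.11 and 0.15. Hspa1a lay at 12.8, 15.9, 17.3 and 13.7 CPM in vehicle replicates 1 to 4 and at 16.3, 19.7, 14.0 and 16.2 CPM in MCH replicates 1 to 4, with a log2 fold change of 0.15 ± 0.12 (SE). Hspa1b lay at 11.3, 8.95, 11.8 and 14.7 CPM in vehicle and at 11.98, 12.4, 11.6 and 10.6 CPM in MCH (log2 fold change -0.01 ± 0.13). Both sets of wells overlapped between the treatments. The sum of the 2 genes, which does not depend on the split, ran from 24.2 to 29.2 CPM in vehicle and from 25.6 to 32.1 CPM in MCH.

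Hsp90aa1 was measured at 1490, 1515, 1410 and 1436 CPM in vehicle and 1487, 1473, 1398 and 1412 CPM in MCH (log2 fold change -0.02 ± 0.04). Hsph1, an HSP110 nucleotide exchange factor, was at 219, 227, 223 and 229 CPM in vehicle and 218, 216, 211 and 212 CPM in MCH (-0.07 ± 0.03). All 4 MCH wells of Hsph1 lay below all 4 vehicle wells, by less than 1 CPM at the closest, while the wells of Hsp90aa1 overlapped. Dnajb1, the J-domain protein that accompanies inducible HSP70, was at 45.0, 44.1, 43.3 and 44.2 CPM in vehicle and 40.8, 41.5, 41.2 and 39.9 CPM in MCH, again without overlap (log2 fold change -0.11 ± 0.04, edgeR adjusted p = 0.40). Dnajb4 also lay lower in every MCH well (51.0 to 52.6 against 53.9 to 54.9 CPM, log2 fold change -0.07 ± 0.03, edgeR adjusted p = 0.59).

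Bag3, Hspb8 and Hspb1, 3 of the 5 heat-inducible genes under 10 TPM, had wide ranges within each treatment, which followed the replicate sides. Hspa1a and Hspa1b, also under 10 TPM, were not called between the sides. Bag3 was at 1.78, 1.27, 5.68 and 5.94 CPM in vehicle and 1.82, 1.65, 5.12 and 5.34 CPM in MCH. Hspb8 was at 4.07, 4.06, 11.1 and 9.81 CPM in vehicle and 3.77, 3.53, 12.7 and 11.4 CPM in MCH. For both genes the treatments overlapped and the higher wells were those of replicates 3 and 4, a pattern described with the sides. Hspb1, at 0.155, 0.145, 0.529 and 0.854 CPM in vehicle and 0.128, 0.563, 1.21 and 1.05 CPM in MCH, rested on 4 to 35 counts per well, and its log2 fold change of 0.80 ± 0.72 was not called (edgeR adjusted p = 0.86). Over the list, the median log2 fold change of the 10 heat-inducible genes was -0.04, with 7 of 10 under 0, and that of the 53 constitutive genes -0.02, with 37 of 53 under 0. The heat-inducible median changed sign without vehicle replicate 4, to 0.04, and moved to -0.02 when the side was a term.

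Their constitutive counterparts had values of the same size or smaller. Hspa8 was at 2309, 2329, 2218 and 2286 CPM in vehicle and 2169, 2173, 2165 and 2175 CPM in MCH, so that every MCH well lay below every vehicle well (log2 fold change -0.07 ± 0.03, edgeR adjusted p = 0.54). Hsp90ab1 was at 1916, 1931, 1815 and 1845 CPM in vehicle and 1867, 1895, 1790 and 1846 CPM in MCH, with overlap. Hspa4, an HSP110 protein, Dnaja2 and Bag1 had log2 fold changes of -0.06, -0.03 and -0.06, and all 5 counterparts had values under 0. Hspa5, the HSP70 of the ER also called BiP, was at 490, 516, 370 and 378 CPM in vehicle and 499, 494, 332 and 340 CPM in MCH (log2 fold change -0.08 ± 0.18), and its treatments overlapped. The median of the 7 ER-stress-inducible genes was -0.01, with values from -0.08 to 0.09.

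**Figure D2:**
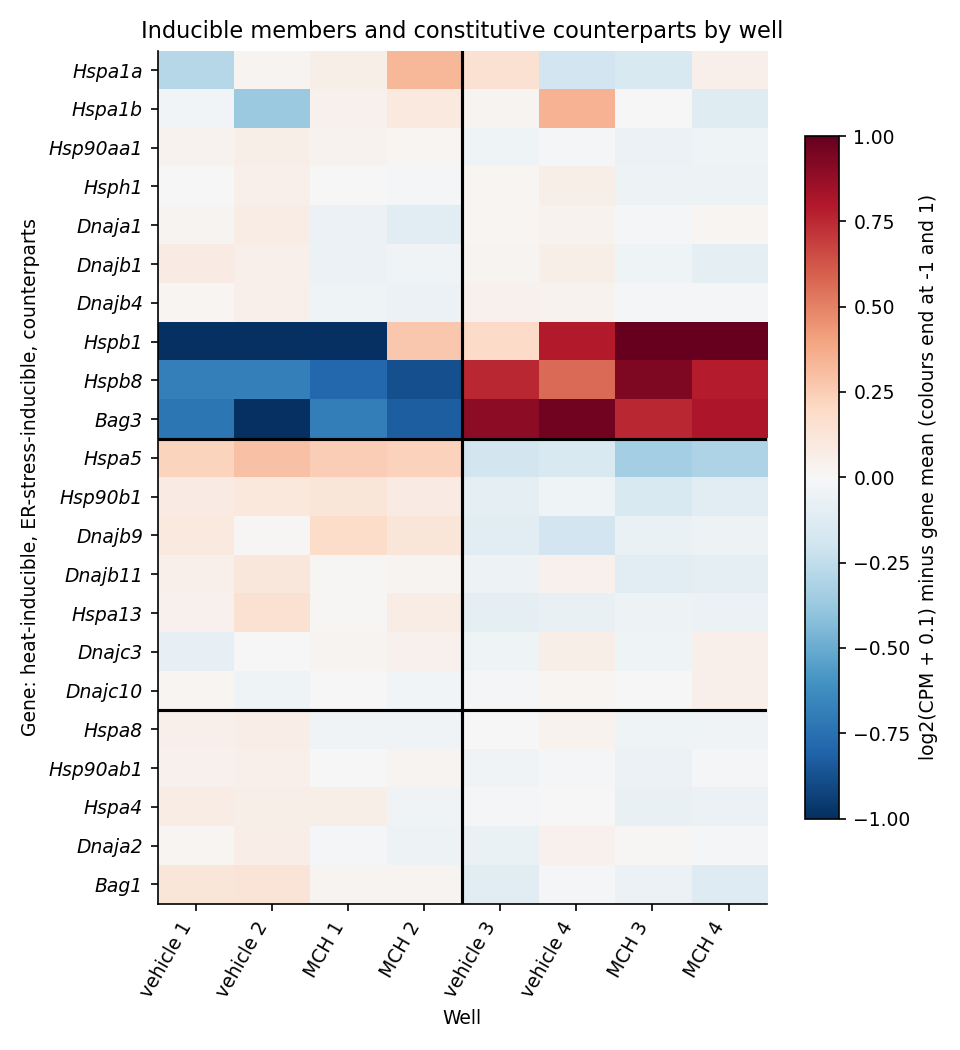
Each cell shows log2(CPM + 0.1) of a gene in a well minus the gene's mean over the 8 wells, with heat-inducible genes on top, ER-stress-inducible genes in the middle and constitutive counterparts at the bottom; the vertical line parts replicates 1-2 from 3-4. Hspb1, Hspb8 and Bag3 are high in replicates 3-4 and Hspa5 is low there.

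With the replicate side as a term 6 members were called for MCH. In this fit 4.46% of all genes and 6 of 70 members passed, 3 in each direction. With the replicate number as a block 3.98% of all genes and 4 members passed, namely Dnajc28, Dnajb14 and Hspa12a, which were higher, and Dnajb5, which was lower. All 6 calls with the side block were of constitutive genes, which make up 53 of the 70 members. None of the 17 inducible genes was called with either block. At shares of 4.46% and 3.98% of all genes, so small a list gives no contrast between inducible and constitutive genes.

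Dnajc28, a J-domain protein of chromosome 16 (GRCm38, chr16:91614254-91619026), was at 8.06, 8.15, 6.70 and 8.51 CPM in vehicle and at 10.2, 10.1, 9.79 and 11.0 CPM in MCH. All MCH wells lay above all vehicle wells, and the log2 fold change was 0.39 ± 0.09 (edgeR adjusted p = 0.19 without a block, 0.012 with the side block and 0.010 with the replicate block). The difference of log2(CPM + 0.1) was 0.32 within replicates 1-2 and 0.45 within replicates 3-4. Dnajb14, a J-domain protein of the ER membrane (chr3:137867675-137916557), was at 116, 108, 114 and 102 CPM in vehicle and at 128, 126, 121 and 122 CPM in MCH, again without overlap (log2 fold change 0.18 ± 0.05, edgeR adjusted p = 0.25 without a block and 0.006 with the side block). Its difference was 0.18 within replicates 1-2 and 0.18 within replicates 3-4. These were the 2 members called by DESeq2 without a block.

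Hspa12a, a distant relative of HSP70, was at 316, 291, 352 and 341 CPM in vehicle and 336, 334, 369 and 372 CPM in MCH. The treatments overlapped over all 8 wells, but within each side both MCH wells lay above both vehicle wells (log2 fold change 0.12 ± 0.03 and edgeR adjusted p = 0.019 with the side block). Hspb3, a small heat shock protein best known from muscle, was at 1.32, 0.906, 0.635 and 0.669 CPM in vehicle and at 0.511, 0.601, 0.277 and 0.281 CPM in MCH. Every MCH well lay below every vehicle well, on 8 to 34 counts per well (log2 fold change -1.08 ± 0.28, edgeR adjusted p = 0.032 with the side block and 0.053 with the replicate block). Dnajb5 was at 132, 128, 127 and 118 CPM in vehicle and 117, 119, 115 and 112 CPM in MCH, which overlapped in 1 vehicle well (log2 fold change -0.12 ± 0.03, edgeR adjusted p = 0.034 with the side block). Hspa8, whose wells are given above, had an edgeR adjusted p of 0.027 with the side block and of 0.055 with the replicate block, at a fall of the mean from 2285 to 2170 CPM.

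**Figure D3:**
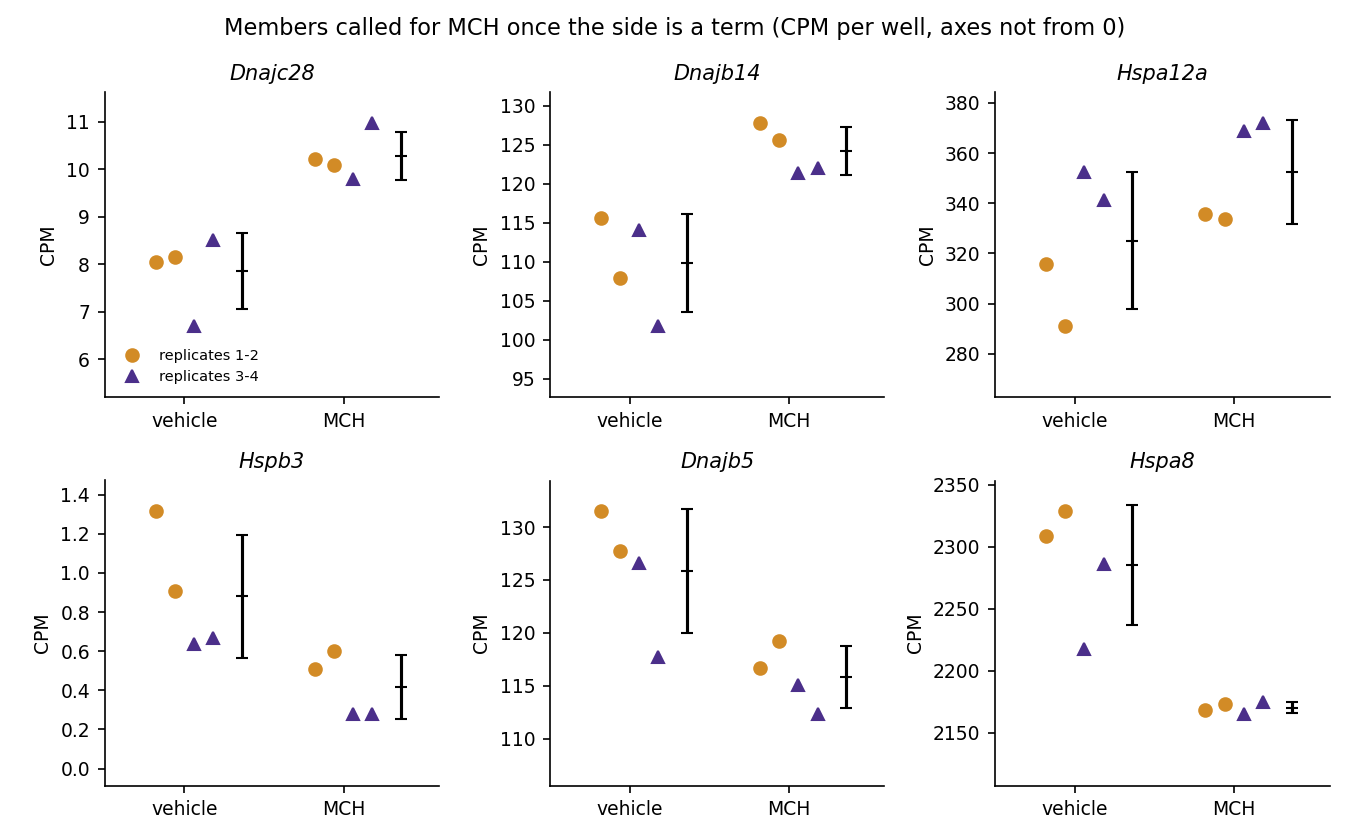
CPM per well of the 6 genes called for MCH with the side as a block; circles are replicates 1-2, triangles replicates 3-4, and the bar at the right of each group is mean ± SD of 4 wells. Axes do not start at 0. Dnajc28, Dnajb14, Hspb3 and Hspa8 show no overlap of treatments, and the 4 MCH wells of Hspa8 sit between 2165 and 2175 CPM.

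Counted over the members, vehicle and MCH wells were fully apart for 8 of 70, beside 6.03% of all genes. MCH lay above for Dnajc28 and Dnajb14 and below for Hspa8, Hsph1, Dnajb1, Dnajb4, Dnajc1 and Hspb3. Dnajc1, a J-domain protein of the ER membrane, was at 21.7 to 22.9 CPM in vehicle and 19.7 to 20.8 CPM in MCH (log2 fold change -0.14 ± 0.05, edgeR adjusted p = 0.42). The remaining members among the 10 of lowest p were Dnajb5 and Bag5, a BAG-family nucleotide exchange factor, at log2 fold changes of -0.12 and -0.09.

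Other genes of the pathways gave no call for MCH without a block. None of 18 further HSF and HSP70/HSP90 cochaperone genes, 16 genes of the ER unfolded protein response and 8 subunits of the chaperonin TRiC passed, with medians of -0.03, -0.07 and -0.06. With the side block 2 genes of the unfolded protein response were lower, Xbp1, its transcription factor, at -0.13 (edgeR adjusted p = 0.028) and Chac1, a target of ATF4, at -0.18 (edgeR adjusted p = 0.016).

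Replicates 3-4 against replicates 1-2 was the second comparison, with treatment as a term. By edgeR's quasi-likelihood test 27 of 70 members differed, where 34.7% of all genes did. Of these, 21 were lower in replicates 3-4, beside 16.1% of all genes, and 6 were higher, beside 18.6%. The split of the members' calls moved with the transcript length offset, which corrects for the average length of the transcripts in use, to 11 lower and 6 higher. The same 6 genes were higher, and 7 (Bag1, Dnaja3, Dnajb9, Dnajc6, Hspa5, Hspa9 and Hspa13) were lower, in all 14 settings run, the reported one included. The markers of astrocytes, the oligodendrocyte lineage, fibroblasts and vessels, and inhibitory neurons given above moved with the same sides, and their part in these differences was not tested.

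**Figure D4:**
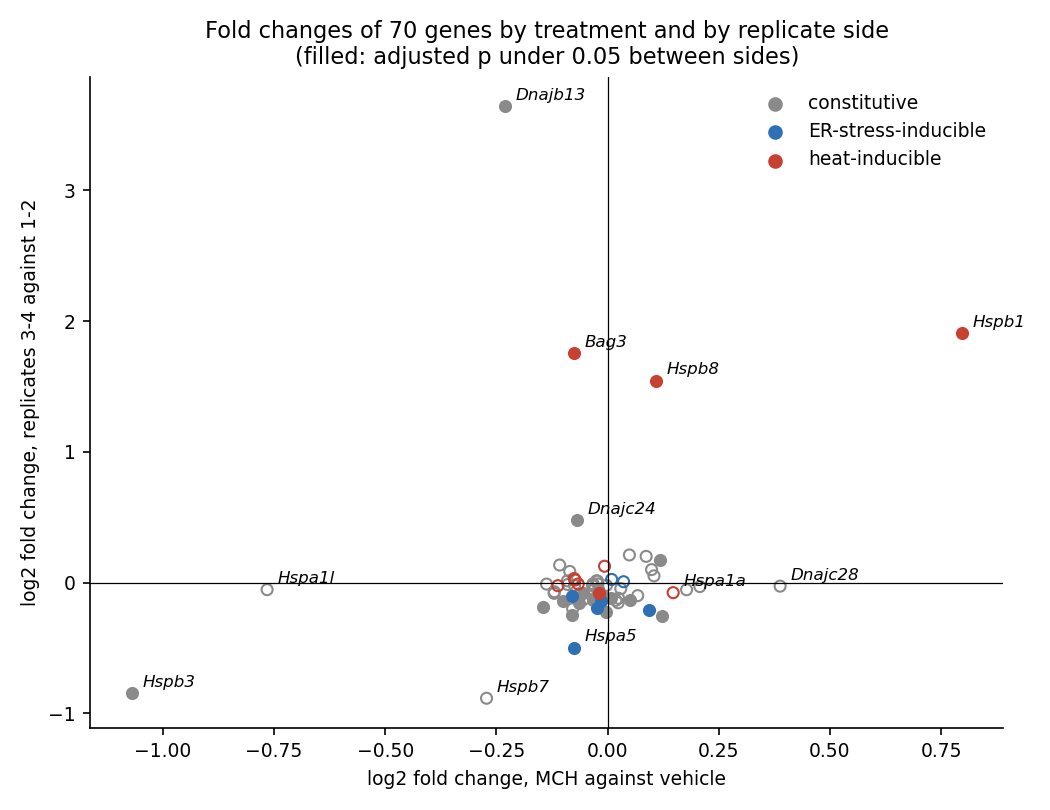
Log2 fold change of MCH against vehicle (horizontal) and of replicates 3-4 against 1-2 (vertical) for the 70 genes, filled where the adjusted p between sides was under 0.05. Dnajb13, Hspb1, Bag3 and Hspb8 lie between 1.54 and 3.64 on the vertical axis, while most genes lie within 0.25 of 0 on both axes.

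The genes that were higher in replicates 3-4 included the stress-inducible pair of Bag3 and Hspb8, whose proteins form a complex that hands misfolded protein to autophagy. Bag3 rose from 1.63 ± 0.25 to 5.52 ± 0.36 CPM (SD, 4 wells on each side), a log2 fold change of 1.75 ± 0.14 and 3.37-fold (edgeR adjusted p = 6.3e-09). Hspb8 rose from 3.86 ± 0.26 to 11.3 ± 1.2 CPM, 2.92-fold (edgeR adjusted p = 2.6e-10), and Hspb1 from 0.248 ± 0.211 to 0.912 ± 0.294 CPM, 3.75-fold (edgeR adjusted p = 4.9e-04). No well of replicates 3-4 overlapped with replicates 1-2 for Bag3 or Hspb8, while 1 well of each side crossed for Hspb1. Hspb1 reached 10 counts in 5 wells, the 4 of replicates 3-4 and MCH replicate 2. It thus met the count rule through the side where it was high, and the rule favoured its difference. The further 3 were Dnajb13, a J-domain protein of motile cilia and sperm flagella that rested on 0 to 28 counts per well (log2 fold change 3.64 ± 0.59) and reached 10 counts only in the 4 wells of replicates 3-4, so that it met the count rule through the side where it was high and had to differ, Dnajc24, which takes part in making diphthamide (0.48 ± 0.12), and Hspa12a (0.17 ± 0.03).

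The other heat-inducible genes did not share this rise. Hspa1a (log2 fold change -0.08 ± 0.12), Hspa1b (0.13 ± 0.12), Hsph1 (-0.01 ± 0.03), Dnajb1 (-0.02 ± 0.04), Dnajb4 (0.02 ± 0.04) and Dnaja1 (0.03 ± 0.03) were not called between the sides, and Hsp90aa1 was lower by a small amount (-0.08 ± 0.02, edgeR adjusted p = 0.0036), a call that was lost with the transcript length offset. The median of the list was 0.03, beside -0.005 over all genes tested, and -0.06 over the constitutive genes. It fell to -0.01 in the narrow form of the list, without Hspb8, Dnaja1 and Dnajb4. Promoters with heat shock pairs, such as those of Bag3, Hspb8, Hsph1 and Hspa1a printed above, were on both sides of this divide. Cryab, a small heat shock protein outside the symbol rule, rose by 0.45 ± 0.08 on the log2 scale (edgeR adjusted p = 2.6e-04).

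Most of the ER-stress-inducible chaperones were lower in replicates 3-4. The median log2 fold change of the 7 ER-stress-inducible genes was -0.14. Over the 11 members listed here as resident in the ER, the ER-stress-inducible ones included, 5 were called lower (45.5%). Among all genes 16.1% were called lower. The median of these 11 was -0.06, the same value as that of the constitutive genes, some of which are among the 11. The genes of this ER list outside the ER-stress-inducible list were not called. Hspa5 was between 490 and 516 CPM in replicates 1-2 and between 332 and 378 CPM in replicates 3-4, without overlap, and fell by 0.50 ± 0.03 on the log2 scale (edgeR adjusted p = 8.8e-11). Hsp90b1 was between 375 and 386 CPM against 318 to 345 CPM (log2 fold change -0.20 ± 0.03, edgeR adjusted p = 7.6e-06). Dnajb9, a J-domain partner of Hspa5, was at -0.21 ± 0.04, Hspa13 at -0.14 ± 0.04 and Dnajb11 at -0.10 ± 0.04, all called, while Dnajc3 and Dnajc10 were within 0.03 of 0 and not called. Thus 5 of the 7 ER-stress-inducible members (71.4%) were called lower and none higher, beside 16.1% and 18.6% of all genes. With the transcript length offset, however, the calls of Hsp90b1 and Dnajb11 were lost and 3 remained (Hspa5, Dnajb9 and Hspa13). Dnajb11 also lost its call with DESeq2 and without single wells. Of the 3 promoters with an ER stress element shown above, those of Hspa5 and Hsp90b1 belonged to genes that fell and that of Dnajc3 to one that did not.

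Genes of the unfolded protein response outside the chaperone families moved in the same comparison. Of 16, 11 were called lower, beside 16.1% of all genes. The protein disulphide isomerase Pdia4 (0.32 ± 0.05) was the 1 called higher, beside 18.6% of all genes. The lower ones included Ddit3, the transcription factor CHOP (-0.73 ± 0.05), Chac1 (-0.62 ± 0.04), Herpud1, a factor of ER-associated degradation (-0.46 ± 0.04), Atf4 (-0.42 ± 0.04) and Xbp1 (-0.28 ± 0.03). Of 18 HSF and HSP70/HSP90 cochaperone genes 4 were lower (Ahsa2, Hspbp1, Stip1 and Unc45a, from -0.23 to -0.10) and 1, Cryab, was higher. Among 8 TRiC subunits 1 was lower (Cct2, -0.08). In both directions together 27.8% of these cochaperone genes and 12.5% of the TRiC subunits were called, beside 34.7% of all genes. Values of these pathway genes with the transcript length offset are not reported here.

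**Figure D5:**
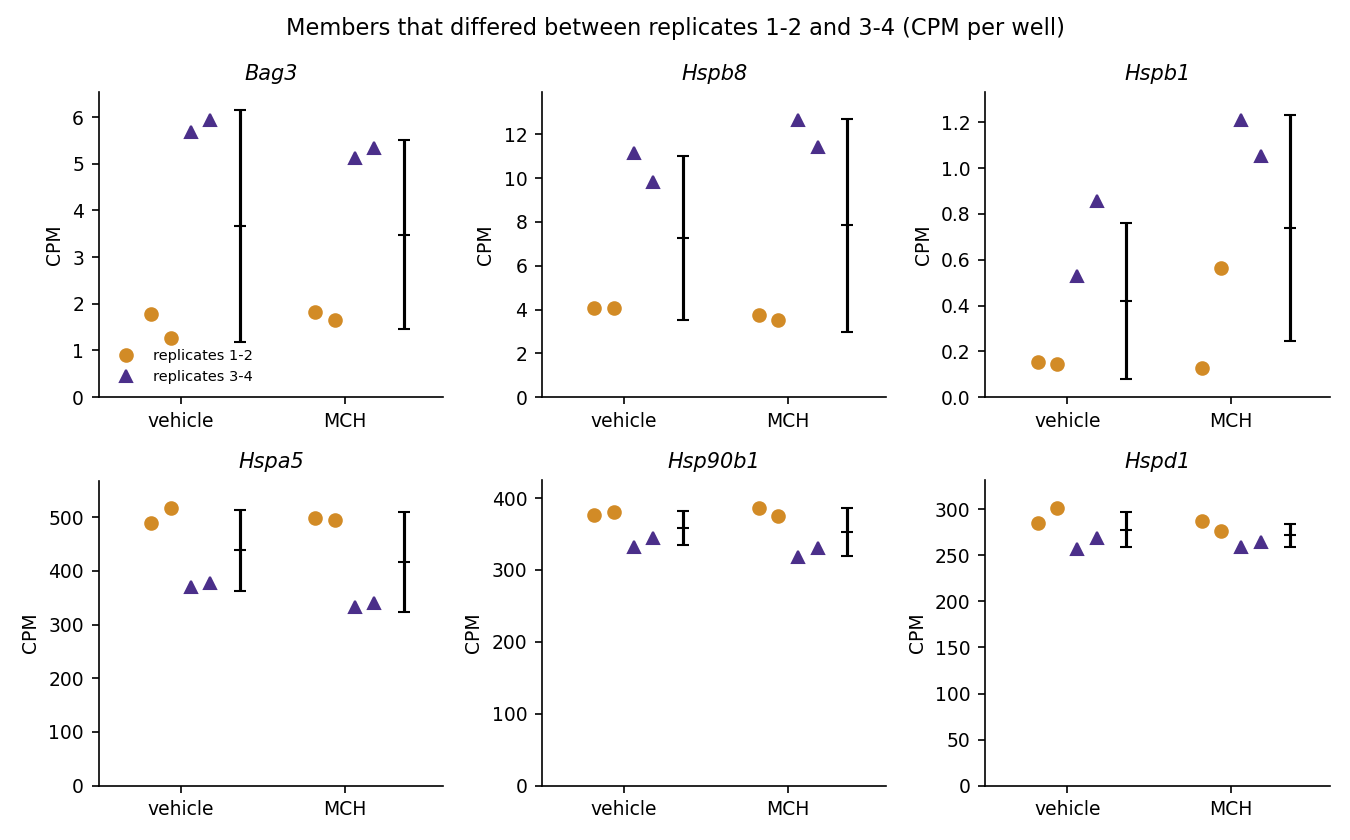
CPM per well of 6 genes that differed between the sides; circles are replicates 1-2, triangles replicates 3-4, and bars at the right of each group are mean ± SD of its 4 wells. Bag3, Hspb8 and Hspb1 are higher in replicates 3-4 and Hspa5, Hsp90b1 and Hspd1 lower, in vehicle and in MCH.

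Among the constitutive members 15 of 53 were called lower and 3 higher, beside 16.1% and 18.6% of all genes. In both directions together 18 of 53 were called, which is about the share of all genes (34.7%). All 8 members of the mitochondrial list lay under 0, with a median of -0.13. Values under 0 were also held by 41 of the 53 constitutive members, beside 51.1% of all genes. Of the mitochondrial list 3 were called (37.5%), all lower, beside 34.7% of all genes called in either direction and 16.1% called lower. The called ones were Hspa9, the mitochondrial HSP70 (-0.25 ± 0.03, edgeR adjusted p = 3.6e-06), Dnaja3, its J-domain partner (-0.22 ± 0.03, edgeR adjusted p = 2.0e-05), and Hspd1, the chaperonin HSP60 (-0.13 ± 0.03, edgeR adjusted p = 0.0011). The call of Hspd1 was lost with the transcript length offset. Hspe1, the lid of that chaperonin, which shares a divergent promoter with Hspd1, was at -0.08 ± 0.05 and not called. The lowest called value was that of Hspb3 (-0.85 ± 0.28), and Dnajc21, a factor of ribosome assembly, was at -0.25 ± 0.09, and both calls were lost when single wells were left out. Of the synaptic J-domain proteins, Dnajc6, the clathrin-uncoating auxilin, fell by 0.14 ± 0.03 (edgeR adjusted p = 3.9e-04) and Dnajc5, the cysteine string protein, was at -0.06 ± 0.02 (edgeR adjusted p = 0.055). Of the counterparts, Hsp90ab1, Hspa4 and Bag1 were called lower (-0.06, -0.08 and -0.16) and Hspa8 and Dnaja2 were not (-0.02 and -0.01). Hspa4 lost its call with the transcript length offset and without MCH replicate 1 or 3, and Hsp90ab1 without MCH replicate 3, while Bag1 kept its call in all 14 settings.

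Whether the effect of MCH differed between the sides was tested by an interaction term. No member passed, where 0.0267% of all genes did, 7 of 70 members had an unadjusted p under 0.05, beside 7.60% of all genes, and DESeq2 called 0 members as well. The lowest p among members was that of Hspa1b (edgeR adjusted p = 0.52), whose difference of log2(CPM + 0.1) between MCH and vehicle was 0.27 within replicates 1-2 and -0.25 within replicates 3-4. It was called when low genes were not filtered (edgeR adjusted p = 0.033), and the split of its reads with Hspa1a is uncertain. Hspa5 was next, with -0.02 within replicates 1-2 and -0.15 within replicates 3-4, where its MCH wells (332 and 340 CPM) lay below its vehicle wells (370 and 378 CPM), and was not called (edgeR adjusted p = 0.59).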

How the data were processed

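RNA was sequenced from 8 wells, and per the labels and the methods the authors quantified the reads with Salmon against GRCm38. The deposited gene table holds estimated counts, not scaled for length or depth (9.13% of values are not whole), and the deposited transcript tables hold estimated counts and TPM, a unit in which the authors' quantification accounts for length and depth. The annotation release is not given in the sources used here. GENCODE vM21 named 45143 of the 45706 genes, and coordinates are from it. All columns were used. Library totals of 26083936 to 31844861 limit the precision at low counts.

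Estimated counts were rounded and tested in R 4.3.3 with edgeR 4.0.16 (TMM, filterByExpr with a count minimum of 10, quasi-likelihood F test, Benjamini-Hochberg adjustment over 14962 genes, threshold 0.05), without a block as in the study's methods. The SE of a log2 fold change is that value divided by the root of its F statistic. CPM were scaled with TMM factors, and TPM were summed over transcripts. The fits were tested on simulated data. DESeq2 1.42.0, DESeq2 size factors, other filters, a transcript length offset, both blocks, other forms of the list and leaving out each well were alternatives. Same-numbered wells of the treatments deviated together (Pearson's r over genes from 0.445 to 0.545, all over 0.1). Wells of the same side with other numbers were as similar (0.475 to 0.521). This check therefore shows the sides and does not show that the numbers pair the wells. The labels do not say what a number marks.

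The members and the lists were chosen with earlier results of these data known. Genes named are the inducible lists and counterparts, members called or of the 10 lowest p for MCH, members whose treatments do not overlap, the 5 lowest and 5 highest called between sides, the 5 of highest TPM, those at the limit of the rule, those called for the interaction, and pathway genes called for MCH. Other genes, such as those of the unfolded protein response, Cryab, Hspd1, Hspe1, Dnajc5, Dnajc6, Hspa1l, Hspa2 and Hspb6, were named after their values were seen. Promoters were read from RefSeq (GRCm38.p6), taking for each gene the one nearest to the annotated start.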

Additional observations from a re-analysis of the deposited data

How the results depend on the processing

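The count of members called for MCH stayed at 0 without any 1 well and with DESeq2 size factors, other filters or the transcript length offset, and was 2 with DESeq2, 4 with the replicate block and 6 with the side block. The blocks changed no call of a member beyond those named in the report. Over all genes, 35 were called for MCH, against 171 with DESeq2, 7 with the transcript length offset, 596 with the replicate block, 668 with the side block and 4 to 29 without 1 well (5, 9 and 4 without vehicle replicates 1, 2 and 4, and 12, 10 and 7 without MCH replicates 2, 3 and 4). The median of the heat-inducible list for MCH (-0.043) was -0.010 with the transcript length offset, -0.027 with the replicate block, -0.025 with the side block, -0.020 in the narrow form and -0.072 to 0.044 without 1 well, and that of the constitutive list stayed within the spread of the replicate pairs. Between the sides the calls were 17 of 70 members and 3115 genes with the transcript length offset (27 and 5194 without it), and 20 to 29 members without 1 well. The heat-inducible median between sides (0.026) was -0.010 in the narrow form, 0.0051 in the wide form with Hspd1 and Hspe1, and 0.0069 to 0.029 without 1 well, and the constitutive one (-0.056) was -0.077 without a filter and -0.059 to -0.084 without 1 well. The interaction called 1 member, Hspa1b, without a filter. The causes of these shifts were not tested. Of 510 values for 34 named members under alternatives, 45 uncalled ones in 12 members changed sign, and no called one did. Counts under about 10 per well, as in Hspb1, Hspb3, Hspb7 and Dnajb13, limit what can be read from those genes.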

Other observations

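Members best known from other tissues were also measured, among them Hspa1l and Hspa2, HSP70 genes of the testis, and Hspb6, a small heat shock protein of muscle. Hspa2 was at 35.04 to 39.8 CPM in vehicle and 38.4 to 43.1 CPM in MCH, Hspb6 at 2.71 to 5.36 CPM and 3.53 to 3.93 CPM, and Hspa1l at 0.362 to 0.669 CPM and 0.160 to 0.563 CPM, and all 3 overlapped between the treatments. Hspa1l lies beside Hspa1a on chromosome 17 and rested on 5 to 18 counts per well. Dixon's test was run on 68 groups of 4 wells, those of 34 members named by the rule given above. No well in these groups stood apart from the other 3 of its treatment. Hspa1l, Hspa2 and Hspb6 were not among these 34 members. For Hspb6, vehicle replicate 3 (5.36 CPM) lay well above the other vehicle wells (2.71 to 3.15 CPM).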
